A study of Mus musculus with 30 samples.

Results

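The 37 genes described here encode proteins of autophagy and of the lysosome, and they were taken as a fixed list of mouse symbols. The list holds 4 genes of the initiation complex, 5 of nucleation and membrane supply, 6 of the conjugation steps, 5 of the Atg8 family, 5 cargo receptors, 1 transcriptional regulator, 2 lysosomal membrane proteins, 4 hydrolases and 5 subunits of the lysosomal proton pump. All 37 were found among the 33076 genes counted by bulk RNA-seq in diaphragm, the main breathing muscle, and all 37 passed the filter on low counts in every fit. The tissue came from 15 male mice, and each gave 2 libraries: one of perisynaptic muscle, where the neuromuscular junctions lie, and one of extrasynaptic muscle, which has none. The disease group carried BACfxAR121 (written BACfxR121 in the genotype field), a floxed human transgene with the expanded repeat that causes spinal and bulbar muscular atrophy (SBMA). The control group was HSA-Cre;BACfxAR121 littermates, in which Cre recombinase under a human skeletal actin promoter acts on the transgene in skeletal muscle. Controls therefore carried the same transgene in their other tissues and are muscle-rescued animals, not wild type. At 15 weeks there were 4 SBMA and 3 control mice, and at 26 weeks 4 of each, which gives 8 groups of genotype, region and age.

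Macroautophagy encloses cytoplasm in a double membrane and delivers it to the lysosome for breakdown. The Ulk1 kinase complex starts the process, the Beclin 1 and Vps34 lipid kinase complex marks the site, and a pair of conjugation systems attaches Atg8 proteins (the LC3 and GABARAP families) to the growing membrane. Receptors such as p62 tie cargo to those Atg8 proteins, and the vacuolar proton pump (V-ATPase) acidifies the lysosome for its hydrolases. Skeletal muscle relies on this route for turnover of mitochondria, protein aggregates and glycogen, and the transcription factor TFEB drives many of the lysosomal genes.

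The libraries held between 16280873 and 34694446 counts, of which the 37 genes together took between 0.409% and 0.648% of them. Levels are in CPM, the usual unit of counts relative to library size, here with library sizes scaled by TMM factors, and ± on a level is the SD over animals. Differences are log2 fold changes from edgeR's quasi-likelihood F test, called at p under 0.05 after Benjamini-Hochberg adjustment over every gene in the fit. The ± on a difference is an SE worked back from that test, as the size of the log2 fold change divided by the square root of F. Each replicate is a separate mouse. The scaling bears on every direction given here. The skeletal muscle fibre markers summed to between 68060 and 78300 CPM in the extrasynaptic SBMA libraries at 26 weeks against 123400 to 139300 CPM in controls. Scaling by total counts alone moved the median log2 fold change over all genes from -0.016 to 0.24 in perisynaptic tissue at 26 weeks and from -0.031 to 0.18 in extrasynaptic tissue. At 15 weeks it was moved from -0.0057 to 0.19 in extrasynaptic tissue. In bulk tissue, fewer cells of a type and less RNA per cell cannot be told apart. Control replicate 2 of the perisynaptic 26-week group stood apart in several of the 37 genes, and the number of perisynaptic calls at 26 weeks and several of the values are given with and without it. The extrasynaptic library of the same mouse was also the lowest control in several genes, among them Lamp2, Nbr1 and Atp6v1a.

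Per base of exon, in length-normalised units (RPKM, which is CPM per kilobase), Map1lc3a was the most abundant of the 37, with a mean of 241 RPKM over the 8 groups. Lamp1 followed at 219 RPKM, Ctsd at 190 RPKM (189.9 before rounding) and Sqstm1 at 182 RPKM. Gabarap averaged 102 RPKM and Gabarapl1 77.8 RPKM. Map1lc3b, the LC3 gene most often used as a marker protein, was at 18.1 RPKM, and Gabarapl2 was lowest of the Atg8 family at 4.4 RPKM. These values depend on the length used, the union of all annotated exons, which is 7517 bases for Map1lc3b and 2013 for Gabarapl1. Without division by length the libraries ran from 118.6 to 150.1 CPM for Map1lc3b and from 120.7 to 234.8 CPM for Gabarapl1. The conjugation enzymes lay at the bottom of the order, with Atg7 at 1.86 RPKM. Over the 30 libraries, the ranges of every pair of neighbours in this order overlapped, so the order of neighbours is not resolved. As the ratio of the highest to the lowest group mean, Ulk1 varied most of the 37, from 8.29 to 17.4 RPKM (2.10 times), followed by Map1lc3a, from 184 to 347 RPKM (1.89 times). Tfeb varied least on that ratio, from 10.8 to 11.3 RPKM (1.05 times).

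**Figure D1:**
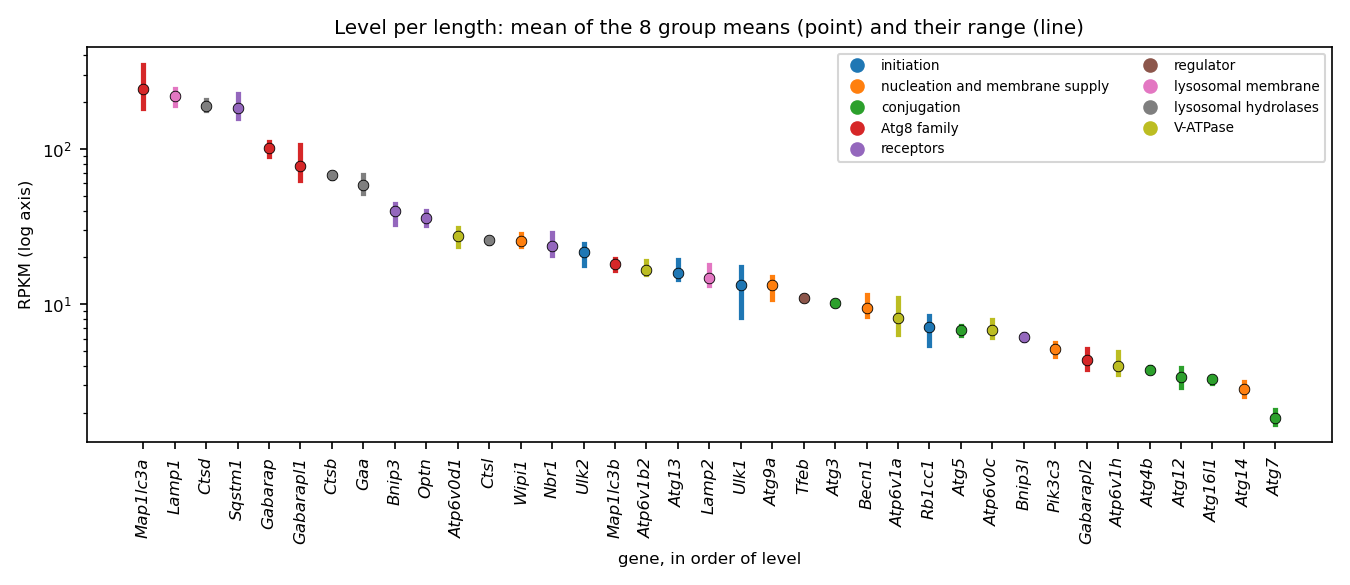
Level of each of the 37 genes per exon length (RPKM, log axis), in order of the mean of the 8 group means (point), with the range of the group means as a line and colour by role. Map1lc3a leads at 241 RPKM and Atg7 is last at 1.86 RPKM. The lines of Ulk1 and Map1lc3a are the longest relative to their level.

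At 26 weeks the 37 genes were split in direction between SBMA and control diaphragm. In extrasynaptic tissue 17 of 37 passed the test, 12 higher and 5 lower in SBMA, which is 45.9% of them where 32.2% of all genes were called. In perisynaptic tissue 5 of 37 passed, 4 higher and 1 lower. This is 13.5% where 14% of all genes were called, so in this fit the share was that of any gene. The comparison with all genes changed with the fit. DESeq2, another program for counts, called 11 of the 37 and 2717 of all genes in perisynaptic tissue. A term for the run of animal numbers in the library names gave 9 and 3222. Fitting the 26-week perisynaptic libraries by themselves gave 2 and 1302. Under total counts alone the extrasynaptic split became 21 higher and 1 lower, and the perisynaptic one 19 higher and 0 lower. That scaling also raised the calls among all genes, from 5007 to 6286 in extrasynaptic and from 2204 to 4642 in perisynaptic tissue. The median log2 fold change of the 37 was 0.087 in extrasynaptic and 0.091 in perisynaptic tissue, beside -0.031 and -0.016 over all genes tested. All 5 perisynaptic calls were also called, in the same direction, in extrasynaptic tissue (100% of the shorter list and 29.4% of the longer), and all 17 extrasynaptic calls had the same sign in perisynaptic tissue. The 2 pieces came from the same animals. Without perisynaptic control replicate 2, perisynaptic tissue had 7 calls among the 37, 4 higher and 3 lower, and without SBMA replicate 1 or 2 it had 3. The number called among all genes under these omissions is not given here.

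**Figure D2:**
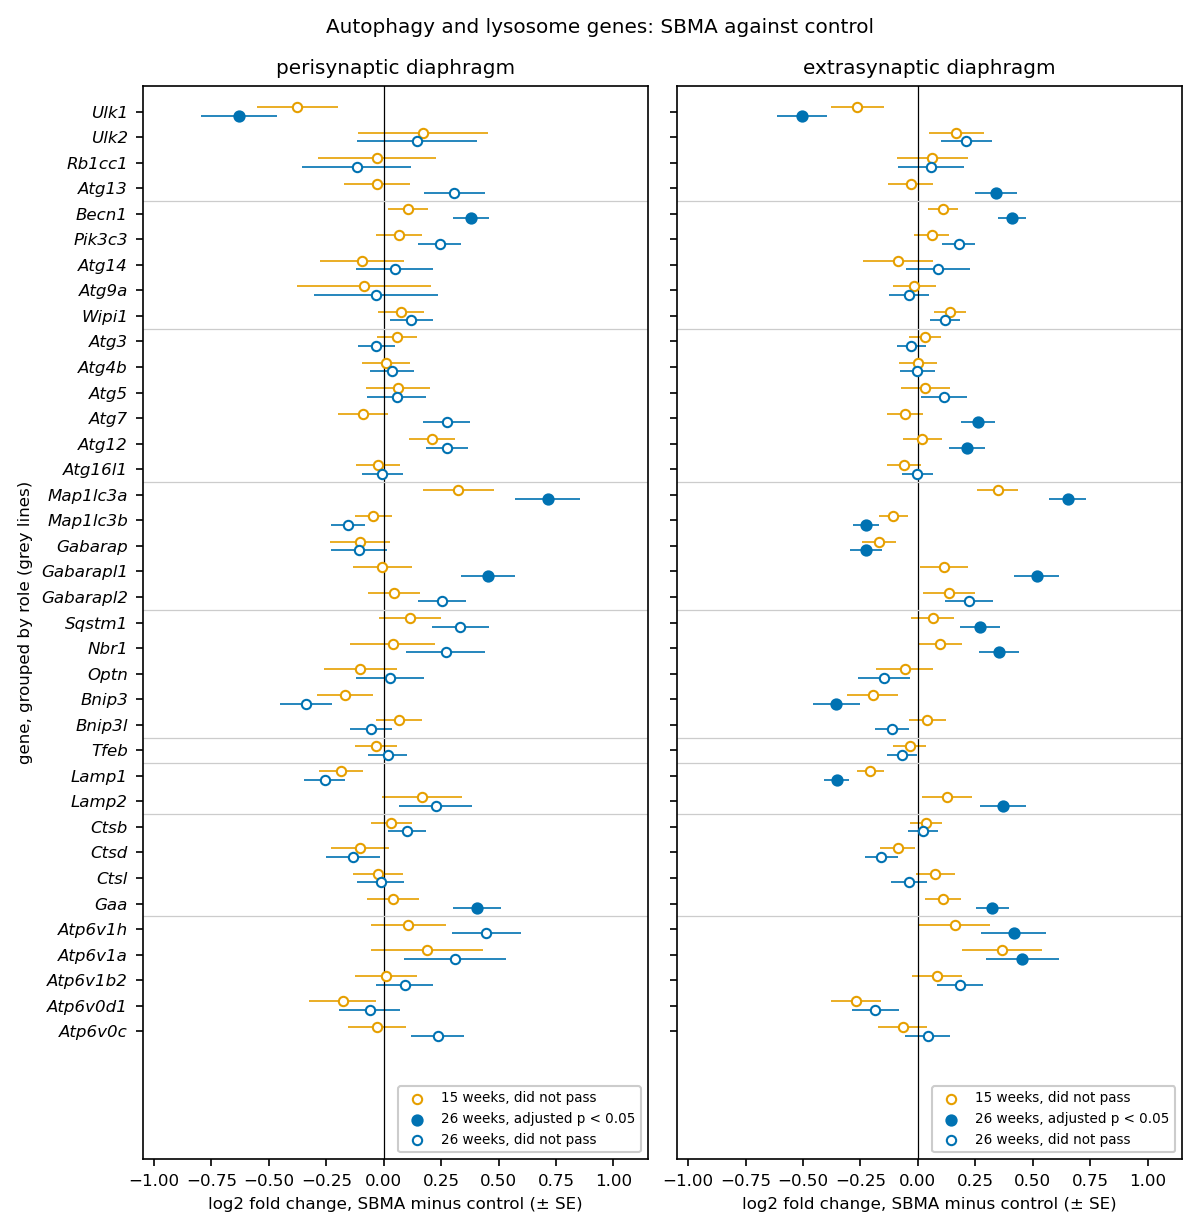
Log2 fold change, SBMA minus control, ± SE for the 37 genes by role (grey lines part the roles), in perisynaptic (left) and extrasynaptic (right) diaphragm at 15 weeks (orange) and 26 weeks (blue). Filled points passed an adjusted p of 0.05: 5 perisynaptic and 17 extrasynaptic genes at 26 weeks, and 0 at 15 weeks. Under total counts alone, Lamp1 and Map1lc3b lay on the other side of 0 in perisynaptic tissue at 26 weeks, at 0.0053 and 0.098.

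Among the genes that start autophagy, the kinase gene Ulk1 fell and its partner Atg13 rose. Ulk1 phosphorylates the other members of the initiation complex. In extrasynaptic tissue at 26 weeks, Ulk1 was at 102, 71.9, 90.4 and 91.3 CPM in the 4 controls and at 63.7, 62.9, 66.4 and 57.1 CPM in the 4 SBMA mice. The groups did not overlap, and control replicate 2 was closest to the SBMA range. The log2 fold change was -0.51 ± 0.11 (adjusted p = 0.00256). In perisynaptic tissue, control Ulk1 levels of 87.5, 50.9, 93.3 and 103 CPM stood against 49.1, 47.7, 59.5 and 58.9 CPM in SBMA. Here the groups overlapped through control replicate 2 alone. The perisynaptic change was -0.63 ± 0.16 (adjusted p = 0.0182), and -0.81 (adjusted p = 6.53e-05) without that library. Total counts alone gave Ulk1 -0.36 (adjusted p = 0.0593) in perisynaptic tissue, which ends the call. The perisynaptic call was also lost without SBMA replicate 1 or 2 or control replicate 4.

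Atg13 encodes the adaptor that holds the initiation complex together. In extrasynaptic tissue at 26 weeks it was at 62.3, 57.9, 69.2 and 77.4 CPM in controls and at 86.5, 88.0, 85.7 and 77.7 CPM in SBMA. The lowest SBMA library lay just above the highest control. Atg13 rose by 0.34 ± 0.092 (adjusted p = 0.0112), and its perisynaptic value was 0.31 ± 0.13 (adjusted p = 0.14). The other 2 initiation genes did not pass at 26 weeks. Ulk2, a second Ulk kinase, had 0.21 ± 0.11 (adjusted p = 0.16) in extrasynaptic and 0.14 ± 0.26 in perisynaptic tissue. Rb1cc1, the scaffold also called FIP200, had 0.057 ± 0.14 and -0.12 ± 0.24. Both were uneven within the perisynaptic 26-week groups. Rb1cc1 was at 59.4 and 62.8 CPM in SBMA replicates 1 and 2 and at 98.8 and 98.3 CPM in replicates 3 and 4, and control replicate 2 was at 43.0 CPM where the other controls were at 83.8, 109 and 113 CPM. Ulk2 was at 88.4 and 99.8 CPM in the first pair and at 142 and 138 CPM in the second, with control replicate 2 at 43.2 CPM against 106, 134 and 143 CPM. Replicates 1 and 2 of both genotypes carry one run of consecutive animal numbers in the library names and replicates 3 and 4 another.

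Becn1, which encodes Beclin 1 of the Vps34 lipid kinase complex, was the nucleation gene that rose. In extrasynaptic tissue at 26 weeks its level was 61.3, 63.9, 57.4 and 61.6 CPM in controls and 82.9, 82.5, 84.4 and 74.98 CPM in SBMA. In perisynaptic tissue it was 58.3, 60.2, 56.0 and 61.7 CPM in controls and 77.5, 81.4, 77.3 and 68.95 CPM in SBMA. Both pairs of groups were apart, with control SDs of 2.68 and 2.47 CPM. The log2 fold change was 0.41 ± 0.061 (adjusted p = 0.000141) in extrasynaptic and 0.38 ± 0.080 (adjusted p = 0.0049) in perisynaptic tissue, and the call held without each animal in turn in both. Within the runs of animal numbers, Becn1 differed by 0.40 and 0.42 in extrasynaptic and by 0.42 and 0.31 in perisynaptic tissue. On the opposite strand, exons of Cntd1 cover 43.9% of the exon length of Becn1, and Cntd1 had 0.666% as many counts. Becn1 lies at chr11:101285952-101302286 (GRCm38).

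The other 4 nucleation and membrane supply genes did not pass. Pik3c3, the Vps34 kinase itself, came closest, at 0.18 ± 0.071 (adjusted p = 0.0674) in extrasynaptic and 0.24 ± 0.093 (adjusted p = 0.0939) in perisynaptic tissue. Its perisynaptic SBMA libraries, from 23.2 to 26.3 CPM, all lay above the controls, from 17.4 to 22.5 CPM. Wipi1, which reads the lipid that Vps34 makes, had 0.12 ± 0.065 and 0.12 ± 0.094. Atg14, the subunit that directs Vps34 to autophagy, had 0.087 ± 0.14 and 0.048 ± 0.17. Atg9a, a membrane protein that supplies lipid to the growing sac, had -0.037 ± 0.087 and -0.033 ± 0.27. Atg9a varied most within a group: perisynaptic control replicate 2 was at 23.7 CPM and the other 3 at 64.6, 78.7 and 87.7 CPM.

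In the conjugation steps, 2 of 6 genes rose in extrasynaptic tissue at 26 weeks and 4 did not pass. Atg7, the enzyme that activates both Atg8 proteins and Atg12, was at 11.4, 12.6, 12.4 and 11.9 CPM in controls and at 15.1, 14.8, 14.3 and 13.8 CPM in SBMA. These groups were apart, and Atg7 rose by 0.26 ± 0.073 (adjusted p = 0.0123). Atg12, the ubiquitin-like partner of Atg5, was at 24.5, 23.6, 26.8 and 28.6 CPM in controls and at 30.3, 28.3, 33.6 and 28.1 CPM in SBMA. Its groups overlapped, the change was 0.21 ± 0.079 (adjusted p = 0.0479), and the call was lost on leaving out any of 5 of the 8 animals. In perisynaptic tissue both genes were apart between the groups and neither passed, at 0.27 ± 0.10 (adjusted p = 0.0839) for Atg7 and 0.27 ± 0.092 (adjusted p = 0.0586) for Atg12. The extrasynaptic values of the other 4 were near 0: Atg3 -0.028, Atg4b -0.0024, Atg5 0.11 and Atg16l1 -0.0014. Their perisynaptic values were -0.033, 0.035, 0.057 and -0.0062.

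The Atg8 family changed in both directions. Map1lc3a and Gabarapl1 rose, Map1lc3b and Gabarap fell in extrasynaptic tissue, and Gabarapl2 did not pass. Total counts alone kept both rises and ended both falls, at -0.012 for Map1lc3b and -0.017 for Gabarap.

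Map1lc3a encodes LC3A and lies at chr2:155276297-155278073. In extrasynaptic tissue at 26 weeks it was at 236, 246, 229 and 208 CPM in controls and at 378, 378, 342 and 348 CPM in SBMA (229.8 ± 16.3 against 361 ± 19.2 CPM, SD, n = 4 each). In perisynaptic tissue it was at 238, 321, 223 and 225 CPM in controls and at 481, 447, 357 and 355 CPM in SBMA. The groups were apart in both regions, with control replicate 2 the highest perisynaptic control. The log2 fold change was 0.65 ± 0.081 (adjusted p = 3.08e-05) in extrasynaptic and 0.71 ± 0.14 (adjusted p = 0.0033) in perisynaptic tissue. Without that control library the perisynaptic value was 0.85 (adjusted p = 0.000268). It differed by 0.65 and 0.66 in the 2 runs of animal numbers in extrasynaptic tissue and by 0.75 and 0.67 in perisynaptic tissue.

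Gabarapl1, at chr6:129533160-129542346, encodes a GABARAP-like Atg8 protein. Its extrasynaptic level at 26 weeks was 144, 134, 137 and 181 CPM in controls and 213, 235, 190.0 and 216 CPM in SBMA. Its perisynaptic level was 150.3, 127, 137 and 182 CPM in controls and 217, 214, 183 and 199 CPM in SBMA. Control replicate 4 was the highest control in both regions and came within 1 CPM of the lowest perisynaptic SBMA library. Gabarapl1 rose by 0.52 ± 0.097 (adjusted p = 0.000938) in extrasynaptic and 0.45 ± 0.12 (adjusted p = 0.0182) in perisynaptic tissue. The perisynaptic call was lost without SBMA replicate 1 or 2 or control replicate 3, with values from 0.38 to 0.56 over all single omissions. Exons of 1700101I11Rik on the opposite strand cover 28.3% of the Gabarapl1 exons, with 0.754% as many counts.

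Map1lc3b encodes LC3B. It was at 150.1, 149, 135 and 148 CPM in extrasynaptic controls at 26 weeks and at 121, 129, 131 and 119 CPM in SBMA. The groups were apart by less than 5 CPM, through control replicate 3. Map1lc3b fell by 0.22 ± 0.057 (adjusted p = 0.00746), and its perisynaptic value was -0.16 ± 0.073 (adjusted p = 0.171). Gabarap was at 205, 217, 183 and 177 CPM in extrasynaptic controls and at 171, 169, 166 and 163 CPM in SBMA, again without overlap. Its change was -0.23 ± 0.069 (adjusted p = 0.0212), lost without control replicate 1 or 2 or SBMA replicate 3, and its perisynaptic value was -0.11 ± 0.12. Gabarapl2 had 0.22 ± 0.10 (adjusted p = 0.118) in extrasynaptic and 0.25 ± 0.10 (adjusted p = 0.117) in perisynaptic tissue. Its perisynaptic SBMA libraries, from 11.2 to 12.3 CPM, all lay above the controls, from 9.85 to 10.3 CPM.

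**Figure D3:**
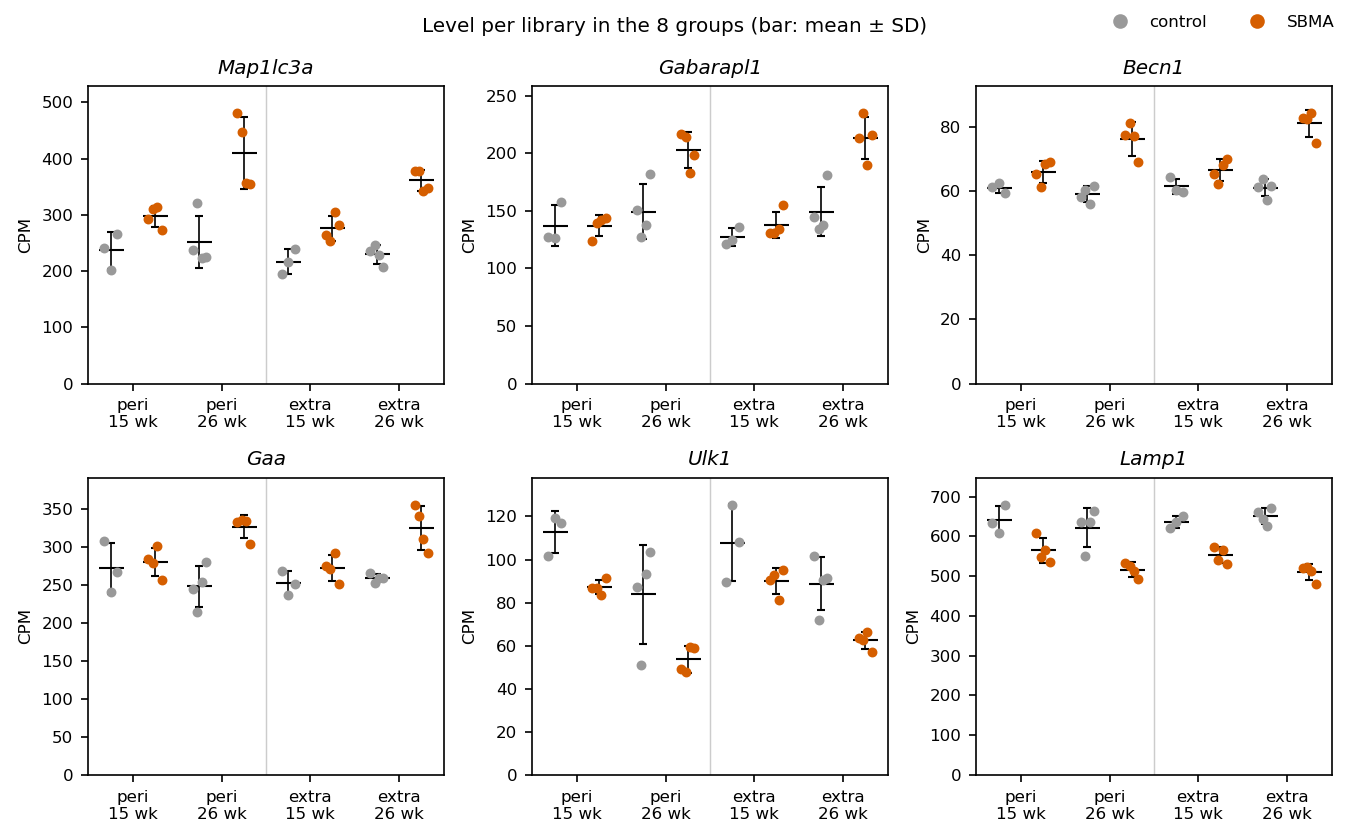
CPM in each library for 6 genes that passed in extrasynaptic tissue at 26 weeks, by region and age, in controls (grey) and SBMA (orange), with bars for mean ± SD (n = 3 controls at 15 weeks, n = 4 elsewhere). Map1lc3a, Gabarapl1, Becn1 and Gaa are higher and Ulk1 and Lamp1 lower in SBMA at 26 weeks, and perisynaptic control replicate 2 is the low Ulk1 control at 50.9 CPM. On total counts alone the extrasynaptic Lamp1 value was -0.14 and did not pass.

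Of the 5 cargo receptors, Sqstm1 and Nbr1 rose, Bnip3 fell, and Optn and Bnip3l did not pass in extrasynaptic tissue at 26 weeks. None of the 5 passed in perisynaptic tissue. Sqstm1 encodes p62, which links ubiquitinated cargo to Atg8 proteins. Its extrasynaptic level was 547, 656, 528 and 657 CPM in controls and 768, 757, 728 and 629 CPM in SBMA, so SBMA replicate 4 lay within the control range. Sqstm1 rose by 0.27 ± 0.086 (adjusted p = 0.0251), lost on leaving out any of 5 of the 8 animals. The perisynaptic value was 0.33 ± 0.13 (adjusted p = 0.0895), from levels of 550, 633, 534 and 692 CPM in controls and 843, 821, 697 and 652 CPM in SBMA. Nbr1, a receptor of the same kind that also sits at the sarcomere, was at 146, 128, 161 and 182 CPM in extrasynaptic controls and at 199.8, 199, 203 and 187 CPM in SBMA. These were apart, at 0.35 ± 0.088 (adjusted p = 0.00642), while the perisynaptic value was 0.27 ± 0.17 (adjusted p = 0.322) with control replicate 2 at 85.8 CPM.

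Bnip3 encodes a mitophagy receptor of the outer mitochondrial membrane. It was at 95.5, 99.7, 86.1 and 117 CPM in extrasynaptic controls at 26 weeks and at 73.5, 84.8, 79.1 and 74.0 CPM in SBMA. The groups were apart and Bnip3 fell by 0.35 ± 0.10 on the log2 scale (adjusted p = 0.0158), which total counts alone reduced to -0.14 (adjusted p = 0.311). In perisynaptic tissue the value was -0.34 ± 0.11 (adjusted p = 0.0597), and it was called without control replicate 2, at -0.41 (adjusted p = 0.0156). Its relative Bnip3l had -0.11 ± 0.075 in extrasynaptic and -0.055 ± 0.091 in perisynaptic tissue. Optn, which encodes optineurin, had -0.15 ± 0.11 and 0.026 ± 0.15.

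Tfeb, the transcriptional regulator of the list, did not pass in any of the 4 comparisons of SBMA with control. At 26 weeks in extrasynaptic tissue it was at 58.3, 71.6, 62.3 and 63.6 CPM in controls and at 59.98, 61.3, 63.1 and 59.6 CPM in SBMA. All 4 SBMA libraries lay within the control range. The log2 fold change was -0.069 ± 0.067 (adjusted p = 0.454) there and 0.017 ± 0.086 (adjusted p = 0.92) in perisynaptic tissue. The activity of TFEB is set largely by its phosphorylation and location in the cell, which mRNA counts do not measure.

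The CLEAR motif that TFEB binds, a palindrome of 10 bases, and shorter forms of it were looked up on both strands in RefSeq promoter windows (GRCm38.p6, 250 bases before to 50 after the gene start), which matched 27 of the 37 genes. Because the shorter motifs lie inside the longer ones, these counts overlap. The whole motif was in 0 of 27 windows and in 0.37% of 27025 genes. Its core TCACGTGA was in 4 of 27 (14.8%) and in 1.12% of all genes, and TCACGTG was in 8 of 27 (29.6%) and in 4.29%. The 4 with the core were Atg3, Atp6v0d1, Atp6v1a and Ctsd, and the others with TCACGTG were Atg7, Atg14, Gaa and Lamp1. The sequences below are shown because these genes carry a form of the motif and differ in their result: Lamp1 fell, Atp6v1a and Gaa rose and Atg3 did not pass in extrasynaptic tissue at 26 weeks. Each is the longest stretch of the 250 bases before the RefSeq start that holds no annotated exon (GENCODE vM21), 5′ to 3′ along the gene, and capitals mark TCACGTG on either strand, with the last base of the core where it is present. A match describes these letters and is not a binding site or a cause.
Lamp1, chr8:13158911-13159160, plus strand: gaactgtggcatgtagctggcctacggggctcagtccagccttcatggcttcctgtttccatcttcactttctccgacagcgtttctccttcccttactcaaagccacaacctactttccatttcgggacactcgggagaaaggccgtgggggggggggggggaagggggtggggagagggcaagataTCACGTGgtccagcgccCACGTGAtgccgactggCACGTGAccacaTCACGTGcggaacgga
Atp6v1a, chr16:44139306-44139461, minus strand: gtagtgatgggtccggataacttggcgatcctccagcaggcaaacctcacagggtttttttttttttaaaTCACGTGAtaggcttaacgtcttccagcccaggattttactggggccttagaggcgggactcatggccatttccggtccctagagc
Gaa, chr11:119267713-119267886, plus strand: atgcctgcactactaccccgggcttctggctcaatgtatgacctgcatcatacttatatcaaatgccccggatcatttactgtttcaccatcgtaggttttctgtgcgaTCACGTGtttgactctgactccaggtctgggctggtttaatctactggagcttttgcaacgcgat
Atg3, chr16:45158707-45158784, plus strand: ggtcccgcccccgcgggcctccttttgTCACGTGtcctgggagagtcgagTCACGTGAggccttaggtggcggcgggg
Lamp1 has 4 such matches, with first bases at -62, -45, -28 and -16 from the start. Atg3 has matches at -95 and -72, Gaa 1 at -141 and Atp6v1a 1 palindrome at -132. The FoxO motif TGTTTAC was in 0 of 27 windows and in 4.05% of all genes.

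The lysosomal membrane proteins went opposite ways in extrasynaptic tissue at 26 weeks. Lamp1 and Lamp2 encode the main glycoproteins of that membrane, and loss of Lamp2 causes Danon disease of heart and skeletal muscle. Lamp1 was at 661, 644, 627 and 672 CPM in controls and at 521, 524, 514 and 479.5 CPM in SBMA. Lamp2 was at 129, 106, 143 and 152 CPM in controls and at 171, 185, 168 and 159 CPM in SBMA. Neither gene overlapped between the groups. Lamp1 fell by 0.35 ± 0.055 on the log2 scale (adjusted p = 0.000215), in both runs of animal numbers (-0.32 and -0.39). With total counts alone it was -0.14 (adjusted p = 0.0618). Lamp2 rose by 0.37 ± 0.10 (adjusted p = 0.0109).

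In perisynaptic tissue neither lysosomal membrane gene passed. Lamp1 was at 637, 549.8, 637 and 663 CPM in controls and at 534, 526, 514 and 492 CPM in SBMA, without overlap, at -0.26 ± 0.090 (adjusted p = 0.0686). Without control replicate 2 it was called, at -0.31 (adjusted p = 0.0118). Lamp2 was at 0.23 ± 0.16 (adjusted p = 0.38), with control replicate 2 at 78.8 CPM and the other controls from 130.3 to 150.5 CPM, and at 0.055 without that library.

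Of the 4 hydrolases, Gaa rose in both regions and the 3 cathepsin genes did not pass. Gaa encodes acid alpha-glucosidase, which degrades lysosomal glycogen and is lost in Pompe disease. At 26 weeks it was at 266, 253, 259.5 and 259 CPM in extrasynaptic controls and at 356, 341, 309.9 and 291 CPM in SBMA. In perisynaptic tissue it was at 245, 214, 253 and 279.7 CPM in controls and at 332, 336, 334 and 304 CPM in SBMA. The groups were apart in both regions. Gaa rose by 0.32 ± 0.072 (adjusted p = 0.00315) in extrasynaptic and 0.41 ± 0.10 (adjusted p = 0.0164) in perisynaptic tissue, and the call held without each animal in turn.

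The cathepsins are the lysosomal proteases. Ctsd was at 460.1, 529, 426 and 459 CPM in extrasynaptic controls at 26 weeks and at 423, 441, 434 and 381 CPM in SBMA, with overlap, at -0.16 ± 0.071 (adjusted p = 0.0988). Ctsl had levels from 154 to 182 CPM in controls and from 149 to 176 CPM in SBMA and a value of -0.038 ± 0.078 (adjusted p = 0.746). Ctsb had 0.023 ± 0.064 (adjusted p = 0.817). In perisynaptic tissue Ctsd had -0.14 ± 0.12, Ctsl -0.013 ± 0.10 and Ctsb 0.10 ± 0.083. On total counts alone the extrasynaptic signs of Ctsd and Ctsl turned, to 0.050 and 0.18.

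Of the 5 V-ATPase subunit genes, Atp6v1a and Atp6v1h rose in extrasynaptic tissue at 26 weeks and none passed in perisynaptic tissue. Atp6v1a encodes the catalytic subunit of the cytosolic V1 sector. It was at 48.1, 32.9, 53.8 and 57.2 CPM in extrasynaptic controls and at 77.6, 70.3, 57.5 and 57.9 CPM in SBMA. The groups were apart by less than 1 CPM. Atp6v1a rose by 0.45 ± 0.16 (adjusted p = 0.0393), a call lost without replicate 1 or 2 of either genotype. Without control replicate 2 the extrasynaptic value was 0.31 (adjusted p = 0.0962). It was 0.89 within the first run of animal numbers and 0.057 within the second. In perisynaptic tissue the levels were 49.4, 23.5, 52.8 and 57.1 CPM in controls and 53.5, 53.5, 59.5 and 58.6 CPM in SBMA, with overlap, and the value was 0.31 ± 0.22 (adjusted p = 0.389), or 0.094 without control replicate 2.

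Atp6v1h, a regulatory V1 subunit, also varied within the groups. Its extrasynaptic level was 32.9, 38.4, 34.1 and 39.3 CPM in controls and 54.2, 57.7, 40.3 and 40.99 CPM in SBMA. SBMA replicates 1 and 2 stood well above replicates 3 and 4, which lay just above the controls. The change was 0.42 ± 0.14 (adjusted p = 0.0355), with 0.65 in the first run and 0.15 in the second, and it was lost without SBMA replicate 1 or 2 or control replicate 1 or 3. The perisynaptic value was 0.45 ± 0.15 (adjusted p = 0.06), with SBMA libraries at 58.5, 54.0, 38.2 and 40.1 CPM. The remaining subunit genes did not pass in either region: Atp6v1b2 had 0.18 and 0.091, Atp6v0d1 -0.19 and -0.062, and Atp6v0c 0.042 and 0.24 in extrasynaptic and perisynaptic tissue. Atp6v0c has processed copies in the genome, so its counts are less certain.

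Across the list at 26 weeks, the libraries of SBMA and control did not overlap for 15 of the 37 genes in extrasynaptic tissue, 10 higher and 5 lower, where 33% of all genes over 1 CPM did not overlap. In perisynaptic tissue the count was 11, 8 higher and 3 lower, where the share of all genes was 20.1%. The differences were not equally large in the 2 runs of animal numbers. In extrasynaptic tissue Lamp2 differed by 0.61 in the first run and 0.16 in the second, Atg13 by 0.54 and 0.16, Nbr1 by 0.55 and 0.18, Gabarapl1 by 0.68 and 0.36, and Gaa by 0.43 and 0.21. In perisynaptic tissue Gabarapl1 differed by 0.64 and 0.27, Gaa by 0.54 and 0.26, and Ulk1 by -0.46 and -0.73. Each run holds 2 mice of each genotype, so these are values with no test. Leaving out each of the 8 animals in turn kept 12 of the 17 extrasynaptic calls and 3 of the 5 perisynaptic ones. Markers of other cells moved in the same comparison. In extrasynaptic SBMA tissue at 26 weeks, where 16.1% of all genes were called lower, 10 of 14 macrophage markers were called lower and none higher. Their summed level ran from 222 to 253 CPM in SBMA and from 314 to 436 CPM in controls, no macrophage marker was at 0 in any library, and their part in the lysosomal results was not tested. All 12 skeletal muscle fibre markers were counted in every library, with Acta1 at 11170 CPM or more.

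At 15 weeks none of the 37 genes passed in either region. At that age 0.21% of all genes passed in perisynaptic and 1.22% in extrasynaptic tissue. At an unadjusted p under 0.05 there was 1 gene of the 37 in perisynaptic and 5 in extrasynaptic tissue. The share of all genes at that cutoff is not given, here or for later counts of this kind. DESeq2 called 0 and 2 of the 37, the latter 1 higher and 1 lower, with 125 and 483 of all genes. With TMM factors 0.554% of all genes were higher in extrasynaptic tissue. Total counts alone gave 10 extrasynaptic calls among the 37, all higher, and 2356 among all genes against 190 with TMM factors. Map1lc3a had the smallest p in extrasynaptic tissue. It was at 195, 216 and 240.0 CPM in controls and at 265, 254, 305 and 281 CPM in SBMA, without overlap, at 0.35 ± 0.088 (adjusted p = 0.0715). In perisynaptic tissue it was at 242, 202 and 266 CPM in controls and at 293, 311, 313 and 273 CPM in SBMA, also without overlap, at 0.33 ± 0.15 (adjusted p = 0.702).

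Ulk1 at 15 weeks was at 102, 119 and 117 CPM in perisynaptic controls and at 86.9, 86.9, 83.5 and 91.4 CPM in SBMA. Those groups were apart, and the value was -0.38 ± 0.18 (adjusted p = 0.699). Its extrasynaptic value was -0.26 ± 0.12 (adjusted p = 0.317), from 89.8, 126 and 108 CPM in controls and 90.3, 93.0, 81.4 and 95.2 CPM in SBMA, which overlapped. Lamp1 was at 622, 637 and 652 CPM in extrasynaptic controls and at 573, 541, 566 and 532 CPM in SBMA, without overlap, at -0.21 ± 0.059 (adjusted p = 0.114). DESeq2 called Lamp1, at -0.20 (adjusted p = 0.00888). In perisynaptic tissue Lamp1 had -0.19 ± 0.096 (adjusted p = 0.748).

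Other genes that rose at 26 weeks did not pass at 15 weeks either. Gabarapl1 averaged 127 ± 7.85 CPM in extrasynaptic controls and 138 ± 11.6 CPM in SBMA, at 0.11 ± 0.10 (adjusted p = 0.664), and its perisynaptic value was -0.0056 ± 0.13 (adjusted p = 0.998). Becn1, of the nucleation complex, had 0.11 ± 0.066 in extrasynaptic and 0.11 ± 0.086 in perisynaptic tissue. Gaa had 0.11 ± 0.078 and 0.041 ± 0.11, and Sqstm1 0.064 ± 0.093 and 0.12 ± 0.14. Atp6v1a had 0.37 ± 0.17 (adjusted p = 0.352) and 0.19 ± 0.24, and Lamp2 0.13 ± 0.11 and 0.17 ± 0.17.

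Map1lc3b, Bnip3, Tfeb and the cathepsin genes Ctsl and Ctsd were also below the threshold at 15 weeks. Map1lc3b had -0.11 ± 0.061 and -0.045 ± 0.079, and Bnip3 -0.20 ± 0.11 and -0.17 ± 0.12, in extrasynaptic and perisynaptic tissue. Tfeb had -0.035 ± 0.072 and -0.033 ± 0.093, Ctsl 0.077 ± 0.084 and -0.024 ± 0.11, and Ctsd -0.087 ± 0.077 and -0.10 ± 0.13. The groups did not overlap for 5 of the 37 genes in extrasynaptic tissue, where 17.2% of all genes did not. In perisynaptic tissue it was 3 of the 37, where the share of all genes was 12.6%. Those 5 were Map1lc3a and Ulk2 higher and Gabarap, Lamp1 and Map1lc3b lower, and the 3 were Map1lc3a and Ulk2 higher and Ulk1 lower. The 15-week groups hold 3 controls.

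Between 15 and 26 weeks, SBMA mice changed in 7 of the 37 genes in extrasynaptic tissue, where 12.1% of all genes were called, and in 2 in perisynaptic tissue, where 3.95% were. Of all genes, 6.52% rose and 5.62% fell with age in extrasynaptic and 2.35% rose and 1.6% fell in perisynaptic SBMA tissue. Controls changed in 0 of the 37 in either region, as in all genes (0%), with 2 extrasynaptic and 1 perisynaptic gene at an unadjusted p under 0.05. DESeq2 called 0 of the 37 in controls, with 46 of all genes in extrasynaptic and 35 in perisynaptic tissue. The age comparisons in SBMA use the same 26-week SBMA libraries as the comparison with controls. Mice of the 2 ages carry separate runs of animal numbers, so age and run cannot be told apart. Gabarapl1 went from 138 ± 11.6 to 213 ± 18.4 CPM in extrasynaptic SBMA tissue and from 137 ± 9.08 to 203 ± 15.8 CPM in perisynaptic tissue. It rose with age by 0.63 ± 0.097 (adjusted p = 0.000751) and 0.58 ± 0.12 (adjusted p = 0.0106), while the control values were 0.23 ± 0.10 (adjusted p = 0.728) and 0.12 ± 0.13. Ulk1 went from 89.98 ± 6.08 to 62.5 ± 3.901 CPM in extrasynaptic and from 87.2 ± 3.24 to 53.8 ± 6.28 CPM in perisynaptic SBMA tissue. It fell by 0.53 ± 0.11 (adjusted p = 0.00583) and by 0.68 ± 0.16 (adjusted p = 0.0286), the latter lost on leaving out any of 5 of the 8 SBMA mice. Control Ulk1 had the same sign with age, at -0.28 ± 0.12 (adjusted p = 0.686) and -0.43 ± 0.18 (adjusted p = 0.845).

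The other 5 genes that changed with age in extrasynaptic SBMA tissue all rose. Map1lc3a rose by 0.39 ± 0.081 (adjusted p = 0.006), Atg13 by 0.39 ± 0.092 (adjusted p = 0.0122) and Sqstm1 by 0.37 ± 0.086 (adjusted p = 0.0122). Becn1 rose by 0.29 ± 0.061 (adjusted p = 0.00649) and Gaa by 0.25 ± 0.072 (adjusted p = 0.0307), the latter lost without 5 of the 8 mice. The control values of these were 0.082, 0.022, 0.16, -0.012 and 0.039 in the same order. Whether the genotypes aged differently is the test of genotype by age, and it called 0 of the 37 in either region, where 1.73% of all genes passed in extrasynaptic and 0.375% in perisynaptic tissue. At an unadjusted p under 0.05 there were 5 and 4 of the 37, and DESeq2 called 1 and 0, with 616 and 178 of all genes. The smallest adjusted p in extrasynaptic tissue was that of Becn1, at a difference of 0.30 ± 0.090 (adjusted p = 0.11), followed by Atg7 at 0.32 (adjusted p = 0.153) and Gabarapl1 at 0.40 ± 0.14 (adjusted p = 0.174). Ulk1 was at -0.24 ± 0.16 (adjusted p = 0.496).

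The paired test of perisynaptic against extrasynaptic pieces, as the mean of both ages, called 0 of the 37 genes in either genotype. It called 2.85% of all genes in controls and 3.53% in SBMA (2.1% and 2.8% higher in perisynaptic tissue). Regional differences at a single age within a genotype were not tested. In controls 3 of the 37 had an unadjusted p under 0.05 and in SBMA 6. DESeq2 called 0 of the 37 in both, with 436 of all genes in controls and 614 in SBMA. The dissection itself showed in the junction genes: 7 of 8 markers of synaptic nuclei and 7 of 8 Schwann cell markers were higher in perisynaptic control tissue. In controls Wipi1 was at 0.12 ± 0.040 (adjusted p = 0.174) and Atg12 at -0.14 ± 0.050 (adjusted p = 0.177), as perisynaptic minus extrasynaptic. In SBMA Gabarap was at 0.13 ± 0.044 (adjusted p = 0.107) and Rb1cc1 at -0.24 ± 0.091 (adjusted p = 0.143). The difference between genotypes in this regional contrast, tested at each age, was called for 0 of the 37. Of all genes, 0% passed at 15 weeks and 0.0124% at 26 weeks, 0.0062% in each direction. At an unadjusted p under 0.05 there were 0 of the 37. DESeq2 called 0 of the 37, with 5 and 4 of all genes at 15 and 26 weeks. So the greater number of calls in extrasynaptic tissue at 26 weeks does not show a regional difference in any one of these genes.

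Other genes of the pathway were read from 7 lists beside the 37. At 26 weeks in extrasynaptic tissue, cargo receptor and mitophagy genes had 9 higher and 3 lower of 20, V-ATPase subunits 6 higher and 0 lower of 13, and lysosomal membrane and transport genes 8 higher and 1 lower of 24. Conjugation and fusion genes had 6 higher and 1 lower of 19, upstream regulators 7 higher and 2 lower of 28, and initiation and nucleation genes 4 higher and 2 lower of 14. The lysosomal hydrolases were the list with more falls than rises, 4 higher and 6 lower of 34. Among all genes tested, 16.1% were called higher and 16.1% lower. In perisynaptic tissue the same lists, in this order, had 3 higher and 1 lower, 4 and 0, 4 and 0, 3 and 0, 3 and 1, 3 and 0, and 3 and 1, where 8.04% of all genes were higher and 5.97% lower. Total counts alone gave the extrasynaptic hydrolases 13 higher and 1 lower.

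**Figure D4:**
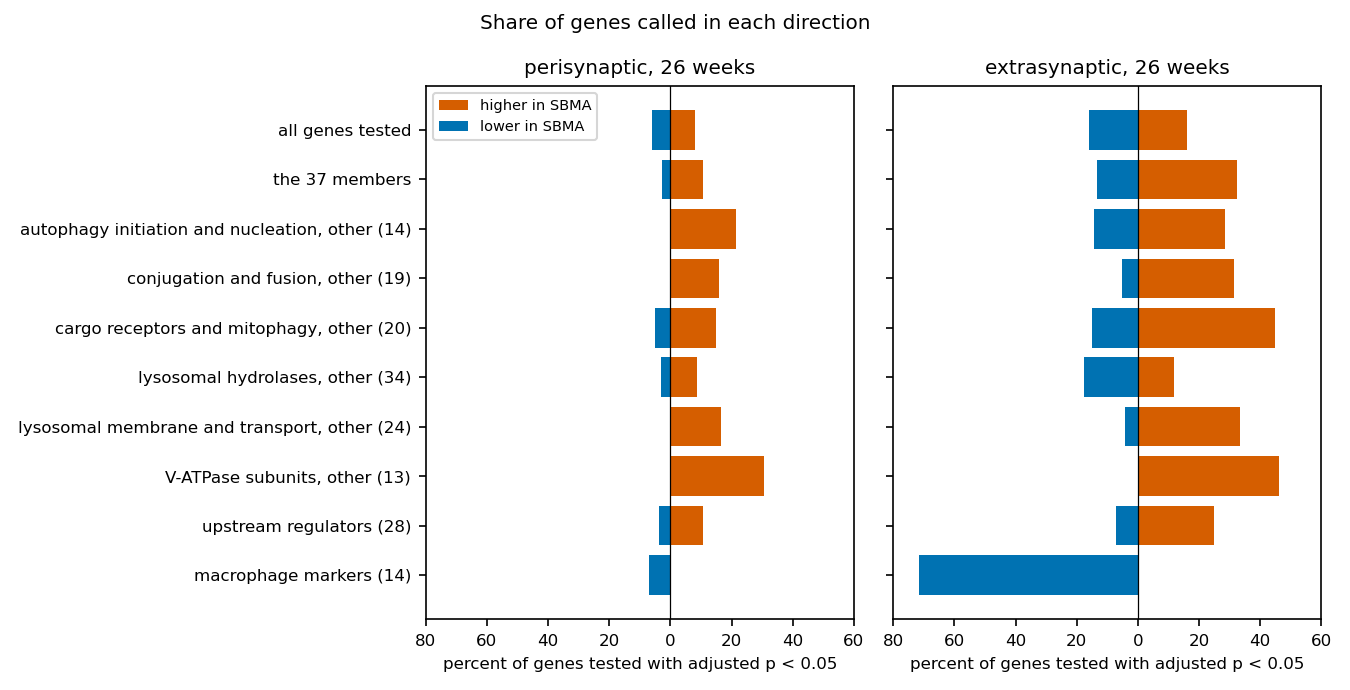
Percent of genes tested that were called higher (orange, right) or lower (blue, left) in SBMA at 26 weeks, for all genes, the 37 genes, 7 lists of other pathway genes and 14 macrophage markers, with the number of genes in each list in brackets. V-ATPase subunits have 6 of 13 higher and 0 lower in extrasynaptic tissue, and 10 of 14 macrophage markers are lower. Total counts alone turned the extrasynaptic hydrolase split to 13 higher and 1 lower.

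The receptor with the greatest change was Stbd1, which binds glycogen and links it to Atg8 proteins. It rose by 1.68 ± 0.12 (adjusted p = 1.41e-07) in extrasynaptic and 1.65 ± 0.12 (adjusted p = 4.72e-07) in perisynaptic tissue at 26 weeks. At 15 weeks it had already passed, at 0.97 ± 0.13 (adjusted p = 0.00114) and 0.75 ± 0.13 (adjusted p = 0.0241), the perisynaptic call being lost without 6 of the 7 animals. Its increase from 15 to 26 weeks differed between genotypes, by 0.70 (adjusted p = 0.046) and 0.90 (adjusted p = 0.0287). Vcp, a segregase that extracts ubiquitinated proteins, rose by 0.52 ± 0.069 and 0.57 ± 0.086 at 26 weeks. Phb2, an inner mitochondrial membrane receptor, fell by 0.60 (adjusted p = 3.03e-05) and by 0.48 (adjusted p = 0.0122), the latter call ended by total counts alone at -0.23. Retreg1, the receptor for endoplasmic reticulum also called FAM134B, fell by 0.63 (adjusted p = 0.000644) in extrasynaptic tissue.

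Among lysosomal transport genes, the sorting receptor Sort1 rose by 1.82 ± 0.18 (adjusted p = 3.18e-06) in extrasynaptic and 1.67 ± 0.22 (adjusted p = 0.000137) in perisynaptic tissue at 26 weeks. Igf2r, the cation-independent mannose 6-phosphate receptor that carries hydrolases to lysosomes, rose by 1.05 (adjusted p = 2.43e-05) and 0.90 (adjusted p = 0.0257), the latter lost without 3 of the 8 animals. Slc38a9, the lysosomal arginine sensor of mTORC1, rose by 0.54 (adjusted p = 0.000271) and 0.46 (adjusted p = 0.0107). Among hydrolases, the protease Lgmn rose by 0.65 ± 0.081 (adjusted p = 3.41e-05) and 0.73 ± 0.081 (adjusted p = 2.96e-05), and Gusb by 0.43 and 0.36. Ctss, a cathepsin abundant in macrophages, fell by 0.74 ± 0.14 (adjusted p = 0.0011) in extrasynaptic tissue. Macrophage markers were lower there as given above, and whether Ctss moves with them was not tested. Smpd1 fell there by 0.34 (adjusted p = 0.00328), a call that total counts alone ended at -0.12.

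The V-ATPase list was led by Atp6ap2, an accessory subunit, at 0.71 (adjusted p = 0.00195) in extrasynaptic and 0.71 ± 0.13 (adjusted p = 0.0024) in perisynaptic tissue. Atp6v1e1 rose by 0.34 (adjusted p = 0.00117) and 0.44 (adjusted p = 0.00419). In nucleation, Uvrag, a Beclin 1 partner, rose by 0.68 ± 0.085 (adjusted p = 3.36e-05) and 0.59 ± 0.11 (adjusted p = 0.00199). Ambra1, which regulates Beclin 1, rose by 0.30 (adjusted p = 0.00153) and 0.27 (adjusted p = 0.0336), the latter lost without 5 of the 8 animals. Tecpr1, which tethers autophagosomes to lysosomes, rose by 0.47 (adjusted p = 9.28e-05) and 0.71 ± 0.12 (adjusted p = 0.000875). As the mean of both ages, it was also higher in perisynaptic than in extrasynaptic tissue. The difference was 0.39 (adjusted p = 0.000296) in controls and 0.49 (adjusted p = 6.86e-06) in SBMA.

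Of the regulators, Hdac6, a deacetylase needed for aggregate clearance, rose by 0.91 ± 0.094 (adjusted p = 5.54e-06) in extrasynaptic and 0.85 ± 0.12 (adjusted p = 0.000185) in perisynaptic tissue at 26 weeks. Prkaa1, a catalytic subunit of AMPK, rose by 0.79 (adjusted p = 0.000468) and 0.67 (adjusted p = 0.0153). Deptor, an inhibitor of mTOR, rose by 0.74 (adjusted p = 0.000243) and 0.58 (adjusted p = 0.0491), the perisynaptic call being lost without 5 of the 8 animals, and had passed at 15 weeks in extrasynaptic tissue, at 0.70 (adjusted p = 0.013). Foxo1, a transcription factor of muscle atrophy, fell by 1.01 ± 0.30 (adjusted p = 0.0376) in perisynaptic tissue, a call lost without 5 of the 8 animals and under total counts alone, at -0.73.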

How the data were processed

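Per the labels' protocols, RNA was extracted with an on-column DNA digestion, mRNA was captured on beads and libraries were made with a stranded kit. The authors deposited whole-number counts of reads per gene, made with featureCounts on mm10 per the submitters' processing notes. Which aligner, annotation release and strand setting they used is not given in the sources used here, so reads of overlapping genes on opposite strands may not be told apart. Gene IDs were matched to GENCODE vM21 symbols (33064 of 33076, 12 unmatched).

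Genes were filtered by filterByExpr (minimum count 10, minimum total 15), scaled by TMM and tested with edgeR 4.0.16 (quasi-likelihood, Benjamini-Hochberg adjustment, threshold 0.05) in R 4.3.3. Each region was fitted with its 15 libraries and 4 group means (15735 perisynaptic and 15526 extrasynaptic genes, 11 residual degrees of freedom). Regions were compared in 1 fit of 30 libraries with a term per animal (16138 genes), since pieces of one animal deviated together: 14 of 15 correlations were over 0.1. Within a genotype, the region effect was taken as the mean of both ages. The scripts were tested on simulated data, with the spread of each fit held equal for all genes. In perisynaptic comparisons of SBMA with control, 14% of 1.5-fold changes were recovered at 15 weeks and 20% at 26 weeks. In extrasynaptic ones it was 44% and 72%. In these comparisons at most 2% of 1.2-fold changes were recovered. Of the simulated calls, 8.41% and 7.41% were false in perisynaptic and 2.42% and 1.46% in extrasynaptic tissue. Each simulation changed 200 genes, whereas 5007 of all genes were called in extrasynaptic tissue at 26 weeks. These shares are therefore not the sensitivity of the tests on the data themselves. A gene that did not pass may still differ. RPKM used the union of exons.

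The 37 genes and all lists were chosen with earlier results of these data known. Named genes were every called gene of the 37, 12 fixed ones (Ulk1, Sqstm1, Map1lc3b, Gabarapl1, Bnip3, Tfeb, Lamp1, Lamp2, Ctsl, Ctsd, Gaa, Atp6v1a) and, of other lists, up to 4 called genes with the smallest p per comparison. Some genes are not reported here, and the genotypes were not checked against the targeted gene. Alternatives were DESeq2 1.42.0, other scaling, no filter, blocks by replicate number or run of animal numbers, fits of only the 2 groups compared, no animal term and leaving out each animal. Intervals and floors for counts were not needed, because the lowest count of any of the 37 genes in a library was 166.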

Additional observations from a re-analysis of the deposited data

Results flagged for a closer look

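In groups of 4 libraries, 13 of 222 combinations of gene and group had 1 library whose gap to its nearest neighbour was large relative to the range of the group, and chance alone gives about 1 in 20. Control replicate 2 of the perisynaptic 26-week group accounted for 3 of them: Atg12 was at 21.3 CPM (others 25.4 to 25.9), Atg14 at 8.66 CPM (others 13.7 to 14.6) and Map1lc3a at 321 CPM (others 223 to 238). In the other perisynaptic 26-week libraries, Gaa was at 304 CPM in SBMA replicate 4 (others 332 to 336). SBMA replicate 2 had Atg5 at 13.7 CPM (others 15.9 to 16.3) and Wipi1 at 106 CPM (others 120.3 to 123). In extrasynaptic controls at 26 weeks, Map1lc3b was at 135 CPM in replicate 3 (others 148 to 150.1) and Wipi1 at 109 CPM in replicate 4 (others 103 to 103.4). In SBMA at 15 weeks, extrasynaptic Atg16l1 was at 27.3 CPM in replicate 1 (others 30.9 to 31.4), Atg3 at 32.9 CPM in replicate 3 (others 31.2 to 31.5) and Gabarapl1 at 155 CPM in replicate 4 (others 131 to 134). Perisynaptic Bnip3l was at 26.8 CPM in replicate 3 (others 23.8 to 24.3) and Optn at 112 CPM in replicate 4 (others 132 to 135).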

How the results depend on the processing

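Of 456 values of called genes under an alternative, 398 stayed called with the same sign, 58 lost the call and 0 turned. Of 516 values of fixed genes that had not passed, 17 passed and 34 turned sign. The counts that follow are called genes of the 37, and the number called among all genes moved too. DESeq2 called 11 in perisynaptic tissue at 26 weeks (7 higher and 4 lower), 2 in extrasynaptic tissue at 15 weeks, 4 with age in perisynaptic SBMA tissue and 1 for genotype by age in extrasynaptic tissue, with 2717, 483, 1030 and 616 of all genes called in that order. Total counts alone called 19 in perisynaptic tissue at 26 weeks, 10 in extrasynaptic tissue at 15 weeks, 12 and 10 with age in extrasynaptic and perisynaptic SBMA tissue, and 1 between regions in controls, with 4642, 2356, 2344, 1336 and 513 of all genes. Without a filter on low counts there was 1 call in extrasynaptic tissue at 15 weeks, 1 between regions in SBMA and 13 in extrasynaptic tissue at 26 weeks, with 291, 1795 and 4420 of all genes. Fits of only the 2 groups compared called 2 in perisynaptic tissue at 26 weeks (Map1lc3a and Becn1) and 11 with age in extrasynaptic SBMA tissue, with 1302 and 2927 of all genes. With the run of animal numbers as a block there were 9 calls in perisynaptic tissue at 26 weeks and 1 in extrasynaptic tissue at 15 weeks, with 3222 and 144 of all genes. The cause of these differences was not tested.

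The replicate block left 5 calls in perisynaptic and 13 in extrasynaptic tissue at 26 weeks, and in the latter Atg7, Atg12, Sqstm1 and Atp6v1a were no longer called; the counts of the other comparisons within a region were as without it. Whether the numbers pair SBMA with control animals is not settled: 3 of 4 pairs at 26 weeks in each region and 0 of 3 at 15 weeks correlated over 0.1. Perisynaptic pairs at 26 weeks ran from 0.0528 to 0.398, beside 0.213 to 0.419 for the 2 regions of one SBMA animal at that age. Same-numbered animals of the 2 genotypes share a run of animal numbers at 26 weeks, and the main fit has no term for the run. Without the animal term, 0 of the autophagy and lysosome genes were called between regions. Of all genes, 269 were called in controls and 267 in SBMA. Leaving out 1 animal gave 13 to 18 calls in extrasynaptic and 3 to 7 in perisynaptic tissue at 26 weeks, 6 to 8 and 1 to 2 with age in extrasynaptic and perisynaptic SBMA tissue, and 0 to 1 for genotype by age in extrasynaptic tissue (1 without control 26-week replicate 4). Between regions it gave 0 to 2 in SBMA (2 without 26-week replicate 4) and 0 to 1 in controls (1 without 15-week replicate 2). How many of all genes were called without single animals is not given here.

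Signs turned in genes that had not passed. In perisynaptic tissue at 15 weeks, Gabarapl1 was 0.0051 with DESeq2, 0.0019 with RLE factors, 0.085 with total counts alone, 0.046 with the run block, 0.0057 with only the 2 groups, and -0.060 to 0.11 over single omissions. There, total counts alone gave Map1lc3b 0.040, Ctsl 0.059 and Tfeb 0.051, the run block gave Gaa -0.048, and single omissions gave Gaa -0.041 to 0.14, Ctsl -0.090 to 0.018, Tfeb -0.10 to 0.046 and Atp6v1a -0.025 to 0.44. In extrasynaptic tissue at 15 weeks, total counts alone gave Map1lc3b 0.088, Tfeb 0.16 and Ctsd 0.11, and single omissions gave Tfeb -0.067 to 0.029. In perisynaptic tissue at 26 weeks, total counts alone gave Map1lc3b 0.098, Ctsl 0.24, Ctsd 0.12 and Lamp1 0.0053, and single omissions gave Ctsl -0.079 to 0.034 and Tfeb -0.035 to 0.055. In extrasynaptic tissue at 26 weeks, total counts alone gave Ctsl 0.18, Tfeb 0.14 and Ctsd 0.050, and single omissions gave Ctsl -0.081 to 0.0088.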

Other observations

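Beside the autophagy and lysosome genes, several lists of cell markers differed between SBMA and control tissue at 26 weeks. Among all genes tested at that age, 16.1% were called higher and 16.1% lower in extrasynaptic tissue, and 8.04% and 5.97% in perisynaptic tissue. Satellite cell markers had 4 of 6 higher and 0 lower in each region, with summed levels from 140.1 to 209 CPM in extrasynaptic SBMA libraries and from 81.8 to 117 CPM in controls. Markers of synaptic nuclei had 5 of 8 higher in extrasynaptic and 3 of 8 in perisynaptic tissue. Their extrasynaptic sum ran from 283 to 369.7 CPM in SBMA and from 78.7 to 131 CPM in controls. Skeletal muscle fibre markers had 1 of 12 higher and 8 lower in each region. Endothelial markers had 4 of 10 lower, fibroadipogenic markers 5 of 10 lower and mesothelial markers 5 of 8 lower in extrasynaptic tissue, with none higher. Their perisynaptic counts are not given here, nor are the counts of any marker list under total counts alone. How the marker lists move with the genes of the report was not tested.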
